A study of Mus musculus with 33 samples.

Results

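The 45 DNA replication genes described here encode the proteins that mark, open and copy DNA, from the origin recognition complex to the enzymes that make deoxynucleotides. They were chosen by gene symbol from a list of replication factors, not by a measured value, and all 45 were among the 14717 genes of the deposited RNA table. The table holds RNA-seq of P19 cells. This line of mouse embryonal carcinoma can be led to neurons by retinoic acid (RA) and to mesoderm and cardiac muscle by dimethyl sulfoxide (DMSO). The 15 libraries form 5 groups of 3. D0 is undifferentiated P19 cells. D3RA and D6RA were differentiated with 1 µM all-trans RA for 3 and 6 days, and D3DMSO and D6DMSO with 1% DMSO for the same times. In all 4 differentiated groups the cells formed embryoid bodies for 2 days and were then moved to flasks in maintenance medium. Every group comes from this 1 cell line. Each group's 3 libraries are described as biological replicates. Separate cultures are not mentioned, so the p-values measure only how far these libraries spread, and that spread may be technical. The 18 chromatin immunoprecipitation samples of the series were not analysed here.

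Replication starts where the origin recognition complex, with CDC6 and CDT1, loads the ring-shaped MCM helicase on DNA, a step called licensing that geminin, the product of Gmnn, blocks after S phase has begun. CDC45 and the GINS complex then turn the loaded ring into an active helicase, primase and polymerase alpha lay down primers, and polymerases delta and epsilon extend them while held by the PCNA clamp. Many of these genes are switched on at entry into S phase by E2F transcription factors, so their RNA is generally more abundant in cycling cells than in cells that have left the cycle, as neurons do.

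The start regions of several members carry letters of the known E2F motif, and 4 are shown, 3 with the letters and 1 without, because the results below turn on these genes. RefSeq start windows (250 bases before to 50 after the gene start, build GRCm38.p6) were at hand for 37 of the 45 members, in 45 windows, and not for Gins1, Gins2, Gins4, Mcm4, Gmnn, Prim2, Rfc2 or Pole. The letters TTTCCCGC, TTTCGCGC, TTTGCCGC or TTTGGCGC, on either strand, were in 15 of these 45 windows (33.3%), against 744 of all 32851 windows (2.26%). The letters CCAAT, on either strand, were in 55.6% of the members' windows and in 37.4% of all windows. A match describes the letters of the window and is not a site of binding, and no match says only that these letters are not there. In the sequences, written 5′ to 3′ on the strand of the gene, the E2F letters on either strand are in capitals. Mcm5 (chr8:75109259-75109558, plus strand) holds overlapping matches on both strands. Cdt1 (chr8:122567765-122568064, plus strand) and Pola1 (chrX:93632106-93632405, minus strand) hold 1 each. Mcm10 (chr2:5012742-5013041, minus strand) holds none, but its window ends in tttggcg, so a match running past its last base would not be seen.
Mcm5: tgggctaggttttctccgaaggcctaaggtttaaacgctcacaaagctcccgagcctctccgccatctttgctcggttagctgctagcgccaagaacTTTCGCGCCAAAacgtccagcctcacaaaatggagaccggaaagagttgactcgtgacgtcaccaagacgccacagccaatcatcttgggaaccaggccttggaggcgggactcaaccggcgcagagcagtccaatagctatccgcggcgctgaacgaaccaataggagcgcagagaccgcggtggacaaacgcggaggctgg
Cdt1: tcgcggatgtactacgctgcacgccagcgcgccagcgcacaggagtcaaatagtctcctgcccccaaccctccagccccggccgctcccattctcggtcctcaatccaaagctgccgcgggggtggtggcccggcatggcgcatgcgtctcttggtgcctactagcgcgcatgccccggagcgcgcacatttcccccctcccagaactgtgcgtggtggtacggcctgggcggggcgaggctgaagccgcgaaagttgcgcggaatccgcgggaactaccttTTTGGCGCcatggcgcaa
Pola1: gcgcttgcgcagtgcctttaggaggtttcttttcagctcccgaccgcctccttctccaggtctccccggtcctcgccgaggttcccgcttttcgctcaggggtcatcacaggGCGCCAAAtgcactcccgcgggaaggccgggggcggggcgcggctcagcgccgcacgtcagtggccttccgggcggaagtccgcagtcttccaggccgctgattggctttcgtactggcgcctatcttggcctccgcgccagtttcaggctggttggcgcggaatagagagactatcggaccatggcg
Mcm10: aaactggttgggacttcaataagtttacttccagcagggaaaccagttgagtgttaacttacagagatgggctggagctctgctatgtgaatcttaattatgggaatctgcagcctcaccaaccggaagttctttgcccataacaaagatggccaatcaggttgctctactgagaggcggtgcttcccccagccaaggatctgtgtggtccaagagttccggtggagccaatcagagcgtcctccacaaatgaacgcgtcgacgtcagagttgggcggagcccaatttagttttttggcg

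Levels are given as CPM, counts per 1000000 on the deposited scale, and are compared between libraries and never between genes, since they are not divided by gene length. Libraries held 3.55 to 9.88 M counts (M stands for 1000000) at D0 and D3, with the D3RA libraries spanning 3.55 to 9.82 M, and 38.2 to 49.6 M counts at D6. In D3RA replicates 2 and 3, 4 features took 39.5 and 45.7% of the counts outside the mitochondrial genome, against 1.97% in replicate 1, and the library sizes used ran from 2.19 to 10.98 M in D3RA. Their share was 3.09 to 32.8% in D3DMSO, 8.86 to 23.2% in D0 and at most 1.70% at D6. These libraries enter every comparison with D0 or D3, and the part of this share in the results was not tested. Genes of the mitochondrial genome held 41.6 to 42.6% of the counts in D6RA and 49.8 to 55.8% in D6DMSO, but 0% in every D0 and D3 library, so that the day cannot be told apart from how the D6 libraries were made or counted. Member counts per library lay between 17 and 7351 with a median of 1024, and only Fen1 (17 to 94) went below 39. In RefSeq 20 of the 45 members overlap another annotated gene, namely Orc1 to Orc5, Mcm7, Cdc45, Gins1, Gins2, Pola1, Prim2, Pold1, Pold2, Pole, Pole2, Rfc4, Rpa1, Lig1, Fen1 and Tk1. Whether counting used the strand is not given in the sources used here, so reads of such a pair may not be told apart. The summed CPM of the 5 measured neural markers of 6 was 1060 to 1078 in D3RA against 214 to 234 in D3DMSO, and 2269 to 2344 in D6RA against 142 to 157 in D6DMSO. Of the 4 measured mesoderm markers of 5, the sum was 55.7 to 81.3 in D3RA against 1036 to 1178 in D3DMSO, and 9.27 to 13.4 in D6RA against 153 to 168 in D6DMSO. Within that list Kdr, also a gene of vessels, had 66.8, 53.7 and 78.6 CPM in D3RA against 31.5, 60.3 and 48.5 CPM in D3DMSO. The 3 measured cardiac markers of 4 summed to 2.74 to 3.58 in D3RA (Tnnt2 at 0) against 10.5 to 16.0 in D3DMSO, and to 0.0939 to 0.123 in D6RA against 64.3 to 81.8 in D6DMSO. The 3 endothelium markers summed to 67.8 to 98.2 in D3RA against 1.80 to 3.28 in D3DMSO (Emcn at 0) and 9.12 to 10.8 in D0, and to 7.29 to 10.2 in D6RA against 24.4 to 33.3 in D6DMSO. The 2 measured endoderm markers of 4 summed to 8.14 to 12.8 in D3RA against 7.44 to 9.44 in D3DMSO, and to 0.751 to 1.31 in D6RA against 18.6 to 26.4 in D6DMSO. The sum of the 4 measured pluripotency markers of 5 was 1583 to 1830 in D0, 136 to 164 in D3RA, 473 to 1018 in D3DMSO, 175 to 196 in D6RA and 104 to 123 in D6DMSO. With RA nearly all of it was Sox2, which neural progenitors express too, at 175, 192 and 196 CPM in D6RA against 68.3, 42.2 and 38.9 CPM in D6DMSO. Pou5f1 went the other way, with 0.0993, 0.246 and 0 CPM in D6RA against 40.2, 51.4 and 49.5 CPM in D6DMSO, and 0.273, 0.977 and 4.11 CPM in D3RA against 835, 369 and 461 CPM in D3DMSO. The part of these markers in the results was not tested.

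The replication genes were most abundant in undifferentiated cells and least abundant in D6RA. The group mean was highest in D0 for 26 of the 45 members, in D3RA for 12, in D3DMSO for 6, in D6DMSO for 1 (Pole) and in D6RA for none. The lowest mean was in D6RA for 42 members, the exceptions being Mcm7 and Rfc3 (lowest in D6DMSO) and Orc4 (lowest in D3DMSO). The same shares over all genes were not counted. In such a ranking the day cannot be told apart from how the D6 libraries were made or counted. Summed over the 45 genes, the level was 6944 to 7270 CPM in D0, 5677 to 6130 in D3RA, 5640 to 5787 in D3DMSO, 3281 to 3299 in D6RA and 4574 to 4665 in D6DMSO. The sums of the groups at each day overlapped at D3 and did not overlap at D6. In bulk RNA, fewer cycling cells and less RNA per cell cannot be told apart.

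**Figure D1:**
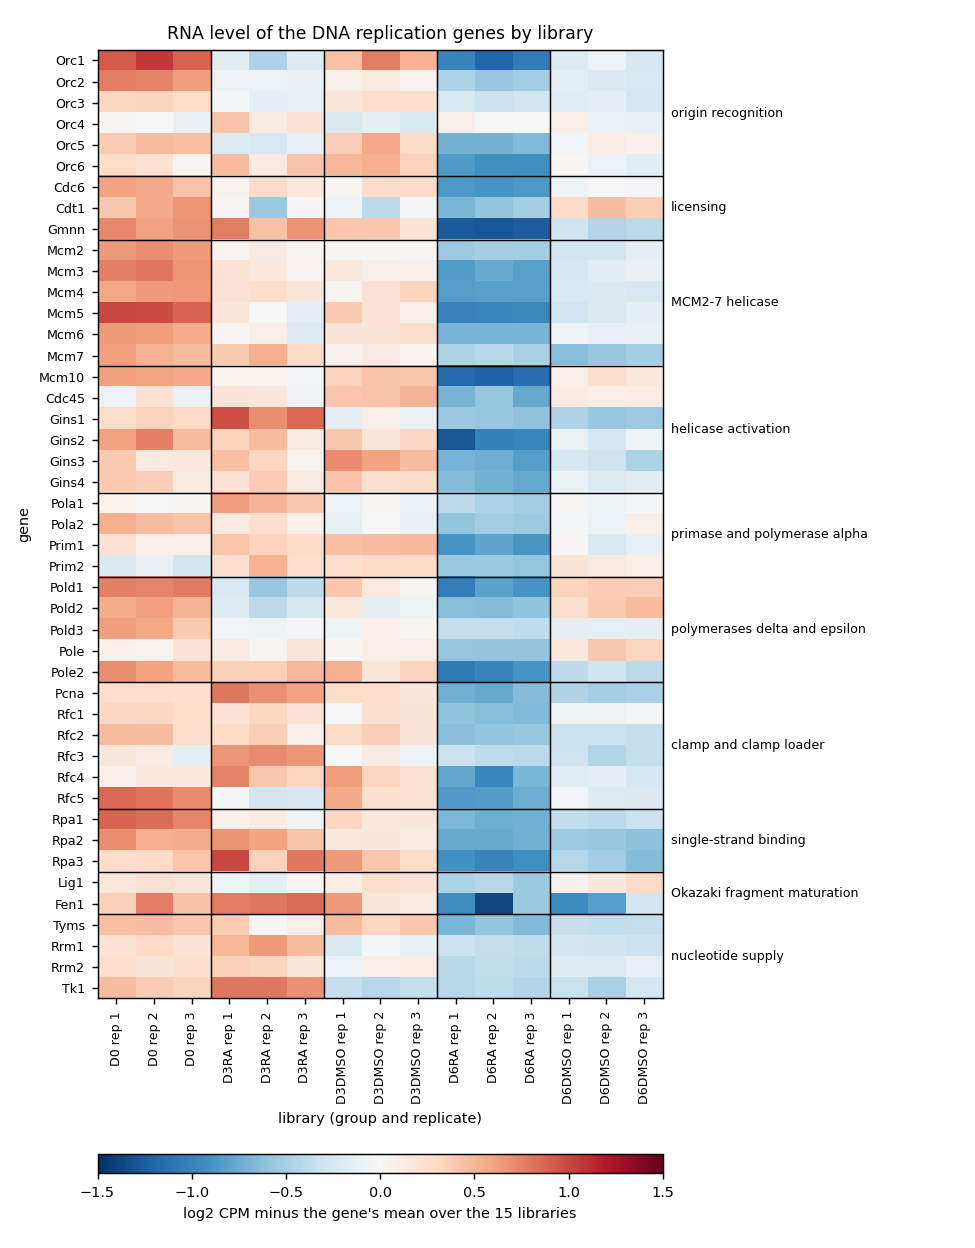
Level of each of the 45 genes (rows, by role) in each of the 15 libraries (columns), as log2 CPM minus the mean of that gene over the 15 libraries, so that red is above and blue below the gene's own mean. The 3 D6RA columns are the bluest for 42 of the 45 genes by group mean, and the D0 columns the reddest for 26.

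At D6 the replication genes were lower with RA than with DMSO almost throughout. Of 45 members, 37 were called lower in D6RA than in D6DMSO and 0 higher (limma, Benjamini-Hochberg adjusted p under 0.05 over all 14717 genes), where 65.8% of all genes were called, 33.1% lower and 32.6% higher. The median log2 fold change was -0.58 over the members and -0.02 over all genes. At an unadjusted p under 0.05, 0 members were higher as well. The count of lower members was 37 under median-of-ratios scaling and 39 under quantile normalization. With quantile normalization the median over all genes moved as well, to -0.10. The share of mitochondrial counts was lower in D6RA, the neural markers were higher and the mesoderm, cardiac, endothelium and endoderm markers were lower, and their part in the result was not tested.

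Among the proteins that find and license origins, 4 of 6 ORC genes and all 3 licensing genes were called lower in D6RA. Orc1, the subunit that joins the complex in the G1 phase, had 18.7, 16.3 and 17.9 CPM in D6RA against 32.6, 34.9 and 31.2 CPM in D6DMSO. The groups did not overlap, and the log2 fold change was -0.90 ± 0.10 (SE, as after every fold change here; adjusted p = 7.32e-07). Orc6, a small subunit needed for MCM loading, had 50.5, 48.2 and 48.5 CPM in D6RA against 92.9, 85.8 and 80.9 CPM in D6DMSO, again without overlap (-0.82 ± 0.09, adjusted p = 6.54e-07). Orc3 and Orc4, core subunits of the ring, were not called (log2 fold change -0.09 and 0.07, adjusted p = 0.192 and 0.501), though Orc3 was called lower under quantile normalization (adjusted p = 0.0109, in a range of 0.0109 to 0.423 over 15 alternatives). Cdc6, the loader that closes the ORC ring, had 39.6, 38.8 and 39.5 CPM in D6RA against 68.6, 71.7 and 70.2 CPM in D6DMSO. Cdt1, which brings the MCM ring to the origin, had 43.9, 46.9 and 49.4 CPM in D6RA against 86.2, 96.97 and 91.1 CPM in D6DMSO. Each D6RA library was below each D6DMSO library for both, with -0.84 ± 0.08 for Cdc6 (adjusted p = 9.93e-08) and -0.97 ± 0.14 for Cdt1 (adjusted p = 8.27e-06). Gmnn, which encodes geminin, the inhibitor of CDT1, had 25.6, 25.0 and 25.8 CPM in D6RA against 49.8, 45.1 and 46.2 CPM in D6DMSO. The inhibitor was lower together with its target, without overlap between the groups (-0.88 ± 0.09, adjusted p = 9.61e-08).

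Of the 6 genes of the MCM ring, the motor that unwinds DNA at the fork, 5 were called lower in D6RA. Mcm5 had 135, 137 and 138 CPM in D6RA against 223, 233 and 248 CPM in D6DMSO and the largest fall of the ring (-0.77 ± 0.09, adjusted p = 5.07e-07). Mcm2 had 182, 187 and 185 CPM in D6RA against 219, 219 and 239 CPM in D6DMSO (-0.29 ± 0.06, adjusted p = 0.000263), and Mcm6 fell by more, with 207, 208 and 208 CPM in D6RA against 319, 309 and 313 CPM in D6DMSO (-0.59 ± 0.07, adjusted p = 9.62e-07). Mcm7, singled out after its values were seen, stood apart from its partners in sign. Its level was 194, 199 and 189.5 CPM in D6RA and 169.8, 179 and 186 CPM in D6DMSO, so that each D6RA library was above each D6DMSO library, but the log2 fold change of 0.12 ± 0.07 was not called (adjusted p = 0.128). It was called higher in the fit of the D6 libraries alone (adjusted p = 0.0408, in a range of 0.0408 to 0.716 over 15 alternatives).

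The genes that turn the ring into an active helicase held the largest fall of all 45. Mcm10, which helps to activate the helicase and holds polymerase alpha at the fork, had 47.0, 45.4 and 47.9 CPM in D6RA against 113, 126 and 118 CPM in D6DMSO. The groups lay far apart, and the log2 fold change was -1.34 ± 0.06 (adjusted p = 6.18e-12). Cdc45, a fixed part of the active helicase, had 38.4, 41.5 and 36.3 CPM in D6RA against 67.7, 66.7 and 66.9 CPM in D6DMSO, without overlap (-0.79 ± 0.09, adjusted p = 8.01e-07). Of the 4 GINS genes, 3 were called lower. Gins1 was the exception, with 19.9, 19.7 and 19.3 CPM in D6RA and 21.2, 19.8 and 20.0 CPM in D6DMSO. These values overlapped, and the difference was not called (-0.05 ± 0.09, adjusted p = 0.646).

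All 4 genes of primase and polymerase alpha and all 5 of polymerases delta and epsilon were called lower in D6RA. Pola1, the catalytic subunit of polymerase alpha, had 109.6, 103 and 99.997 CPM in D6RA against 146, 137 and 142 CPM in D6DMSO (-0.44 ± 0.07, adjusted p = 1.76e-05). Prim1, the catalytic subunit of primase, had 51.3, 54.8 and 51.6 CPM in D6RA against 96.1, 80.6 and 86.4 CPM in D6DMSO (-0.74 ± 0.07, adjusted p = 8.49e-08). Neither gene had an overlap between the groups. Pold1, the catalytic subunit of polymerase delta, which copies mainly the lagging strand, had 44.2, 51.7 and 48.9 CPM in D6RA against 114, 118 and 116 CPM in D6DMSO. Its log2 fold change of -1.27 ± 0.10 (adjusted p = 4.07e-09) was the largest fall after that of Mcm10. Pole, the catalytic subunit of polymerase epsilon, which copies mainly the leading strand, had 97.8, 96.6 and 96.7 CPM in D6RA against 163, 194 and 182 CPM in D6DMSO (-0.88 ± 0.07, adjusted p = 8.05e-09).

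The clamp, the single-strand binding proteins and the nucleotide enzymes differed less. Pcna, the sliding clamp, had 83.4, 81.3 and 87.1 CPM in D6RA against 100.2, 96.3 and 97.6 CPM in D6DMSO, without overlap but with a small difference (-0.23 ± 0.06, adjusted p = 0.00383). RefSeq lists the near copies Pcna-ps1 and Pcna-ps2, so its counts are uncertain where reads could be split. Of the 5 clamp loader genes, 4 were called lower. The other, Rfc3, had 60.2, 57.5 and 56.5 CPM in D6RA and 60.3, 55.1 and 58.5 CPM in D6DMSO, which overlapped (0.00 ± 0.08, adjusted p = 0.98). All 3 genes of RPA, which coats single-stranded DNA, were called lower. Rpa2 had 44.8, 45.03 and 46.0 CPM in D6RA against 52.1, 51.3 and 49.7 CPM in D6DMSO (-0.17 ± 0.07, adjusted p = 0.0405). That call was the weakest of the 37, and it was lost when any 1 of the 6 D6 libraries was left out (adjusted p = 0.0511 to 0.104, in a range of 0.00182 to 0.729 over 15 alternatives).

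Lig1, the ligase that seals Okazaki fragments, had 105, 108 and 98.8 CPM in D6RA against 152, 163 and 179 CPM in D6DMSO, and every D6RA library was below every D6DMSO library (-0.66 ± 0.07, adjusted p = 3.55e-07). Fen1, the flap nuclease that trims these fragments, had the lowest counts of the list, at 2.25, 1.68 and 2.94 CPM in D6RA and 2.24, 2.44 and 3.59 CPM in D6DMSO. Its groups overlapped (-0.27 ± 0.24, adjusted p = 0.332), and with so few counts the 95% interval ran from -0.77 to 0.23. Of the 4 genes of nucleotide supply, Tyms and Rrm2 were called lower and Rrm1 and Tk1 were not. Tyms, thymidylate synthase, had 39.8, 42.4 and 40.5 CPM in D6RA against 50.3, 49.4 and 49.9 CPM in D6DMSO (-0.29 ± 0.08, adjusted p = 0.00532). Its call was lost when every library was thinned to the smallest one (0.302, in a range of 0.000333 to 0.302 over 15 alternatives), and RefSeq lists a near copy, Tyms-ps. Rrm2, the regulated subunit of ribonucleotide reductase, had 123, 127 and 125 CPM in D6RA against 142, 143 and 150.3 CPM in D6DMSO (-0.21 ± 0.07, adjusted p = 0.0114). Tk1, the thymidine kinase of S phase, had 21.4, 22.1 and 21.4 CPM in D6RA and 22.9, 20.6 and 24.1 CPM in D6DMSO. The Tk1 values overlapped, with a log2 fold change of -0.06 ± 0.08 (adjusted p = 0.567). Rrm1, the large subunit of ribonucleotide reductase, gave -0.05 ± 0.06 (adjusted p = 0.518), and was called lower under quantile normalization (adjusted p = 0.0332, in a range of 0.0332 to 0.714 over 15 alternatives).

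**Figure D2:**
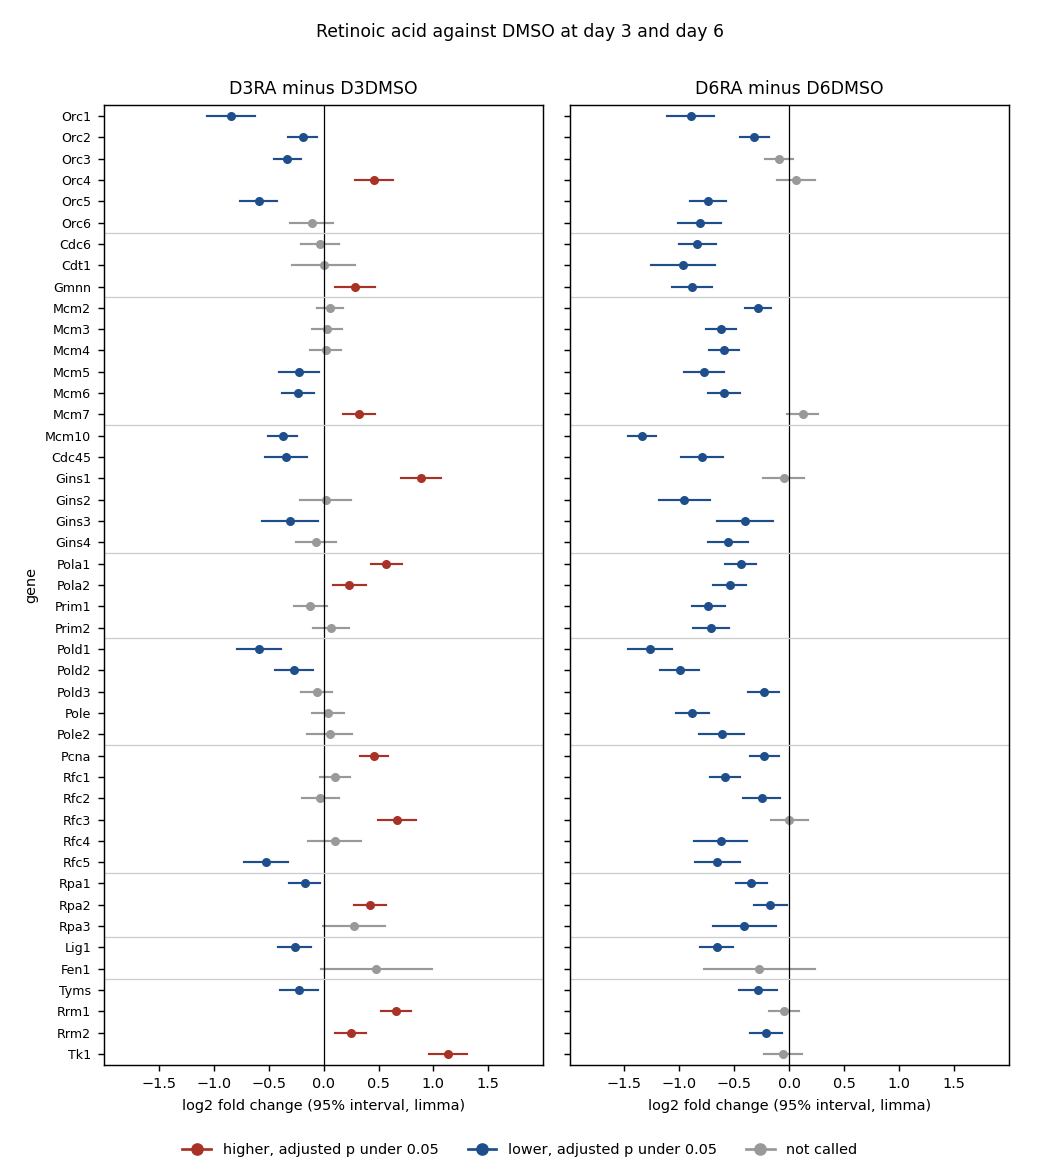
Log2 fold change of RA against DMSO for each of the 45 genes, by role from origin recognition at the top to nucleotide supply at the bottom, at D3 (left) and D6 (right), with 95% intervals from limma. At D3, 12 genes were called higher (red) and 15 lower (blue), and at D6 37 were called lower and none higher.

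At D3 the same set of genes went both ways between RA and DMSO. Of the 45 members, 12 were called higher in D3RA than in D3DMSO and 15 lower, where 62.1% of all genes were called, 30.7% higher and 31.4% lower, so that the members' shares were close to those of all genes. The median log2 fold change was 0.02 over the members and -0.01 over all genes. Fitted on the 6 D3 libraries alone, 9 were called higher and 8 lower, and without the 2 shallowest D3RA libraries (replicates 2 and 3, chosen after their depths were seen) 13 were called higher and 8 lower. In that last fit D3RA is 1 library, assumed to vary like the libraries of the other groups. The D3RA libraries differed more in depth than those of any other group, and the part of depth in these calls was not tested.

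Set against D0, both D3 groups had more members lower than higher. In D3RA 21 members were called lower than in D0 and 11 higher (68.9% of all genes called, 33.9% lower and 35% higher), with a median log2 fold change of -0.14 over the members and 0.01 over all genes. That median was -0.078 without D3RA replicate 3, and -0.21 without D0 replicate 3. In D3DMSO 26 members were called lower than in D0 and 5 higher (56.1% of all genes called, 27.8% lower and 28.2% higher), with a median of -0.24 over the members and 0.02 over all genes. The higher count in D3DMSO was 3 without D0 replicate 3, and 6 with a block for replicate number, which added Rfc4. These comparisons share the D0 libraries, so they are given side by side and not set against each other.

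Origin recognition genes were called lower in D3RA in 4 of 6 cases against D3DMSO and in 4 of 6 against D0. Of all genes, 31.4% and 33.9% were called lower in these comparisons. Orc4 went the other way and was called higher in D3RA in both, with a log2 fold change of 0.46 against D3DMSO and 0.29 against D0. Orc1 had 33.2, 27.0 and 32.4 CPM in D3RA, 50.4, 63.2 and 53.3 CPM in D3DMSO and 70.4, 77.7 and 68.6 CPM in D0. The 3 groups did not overlap, with the D3RA libraries lowest and the D0 libraries highest. Its log2 fold change was -0.84 ± 0.10 for D3RA against D3DMSO (adjusted p = 2.25e-06), -1.22 ± 0.10 for D3RA against D0 (adjusted p = 1.86e-08) and -0.38 ± 0.10 for D3DMSO against D0 (adjusted p = 0.00491). Orc5, another subunit of the ring, fell in D3RA to 45.8, 44.6 and 48.4 CPM, against 68.1, 78.2 and 64.1 CPM in D3DMSO (-0.59 ± 0.08, adjusted p = 5.42e-06). Orc6 had 127, 100.3 and 123 CPM in D3RA, 129, 133 and 116 CPM in D3DMSO and 110.4, 106 and 93.1 CPM in D0. Only its D3DMSO libraries were all above D0 (0.29 ± 0.09, adjusted p = 0.0141), and that call was lost once D0 replicate 3 (adjusted p = 0.0769) or D3DMSO replicate 2 (0.0574) was left out (in a range of 0.0032 to 0.177 over 17 alternatives).

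The licensing factors Cdc6 and Cdt1 were lower than in D0 with either agent and not called between the agents. Cdc6 had 74.7, 87.6 and 80.4 CPM in D3RA, 73.6, 87.4 and 88.1 CPM in D3DMSO and 109, 107 and 96.6 CPM in D0. Cdt1 had 71.9, 47.9 and 72.6 CPM in D3RA, 67.5, 53.4 and 69.6 CPM in D3DMSO and 92.9, 105 and 111 CPM in D0. For both genes the D0 libraries were above all D3 libraries and the D3 groups overlapped, with a log2 fold change of Cdt1 against D0 of -0.70 ± 0.14 in D3RA (adjusted p = 0.00023) and -0.70 ± 0.14 in D3DMSO (adjusted p = 0.000348). The Cdc6 call in D3DMSO against D0 was lost after thinning (0.119, in a range of 0.00146 to 0.119 over 17 alternatives). Gmnn had 104, 82.7 and 97.7 CPM in D3RA, 81.7, 80.7 and 70.3 CPM in D3DMSO and 100.4, 93.1 and 97.6 CPM in D0. Geminin RNA overlapped D0 in D3RA and lay below D0 in D3DMSO (-0.32 ± 0.09, adjusted p = 0.00413), and was higher in D3RA than in D3DMSO (0.29 ± 0.09, adjusted p = 0.00814). That last call was lost in the fit of the D3 libraries alone (0.0548, in a range of 0.000787 to 0.0548 over 18 alternatives).

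All 6 genes of the MCM ring were called lower than in D0 in D3DMSO, and 5 of 6 in D3RA. The Mcm6 call in D3DMSO was lost under quantile normalization (adjusted p = 0.152, in a range of 2.04e-05 to 0.152 over 17 alternatives). Mcm5 had 305, 271 and 246 CPM in D3RA, 357, 315 and 287 CPM in D3DMSO and 544, 535 and 495 CPM in D0. The D0 libraries stood well above the rest, with -0.94 ± 0.09 in D3RA (adjusted p = 5.06e-08) and -0.72 ± 0.09 in D3DMSO (adjusted p = 2.5e-06). The lower level in D3RA than in D3DMSO (-0.22 ± 0.09, adjusted p = 0.0335) rested on overlapping groups, and its call was lost without D3DMSO replicate 1 or 2 or D3RA replicate 2 or 3 (adjusted p = 0.162, 0.059, 0.069 and 0.161, in a range of 0.00189 to 0.66 over 18 alternatives). Mcm2 had 276, 291 and 273 CPM in D3RA, 270.1, 269 and 268 CPM in D3DMSO and 413, 429 and 414 CPM in D0. Mcm6 had 344, 362 and 294 CPM in D3RA, 384, 384 and 405 CPM in D3DMSO and 525, 523 and 496 CPM in D0. Of these, Mcm6 was called lower in D3RA than in D3DMSO (-0.24 ± 0.07, adjusted p = 0.00749), but not in the fit of the D3 libraries alone (0.0711, in a range of 2.72e-05 to 0.0711 over 18 alternatives). Mcm2 was not called between the agents (0.06 ± 0.06, adjusted p = 0.402). Mcm7 was the ring gene that was higher in D3RA, at 347, 384 and 327 CPM against 277, 294 and 272 CPM in D3DMSO (0.33 ± 0.07, adjusted p = 0.000568), and it was not called between D3RA and D0 (adjusted p = 0.0986) except without D3RA replicate 2, where it was lower in D3RA (0.0202, in a range of 0.0202 to 0.424 over 18 alternatives).

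The helicase activators split between the agents. Gins1, a subunit of the GINS complex, had 57.3, 47.6 and 53.0 CPM in D3RA, 26.7, 31.2 and 27.4 CPM in D3DMSO and 35.3, 37.1 and 36.0 CPM in D0. The D3RA libraries were above D0 (0.54 ± 0.09, adjusted p = 3.87e-05), the D3DMSO libraries were below it (-0.35 ± 0.09, adjusted p = 0.00295), and the difference between the agents was 0.89 ± 0.09 (adjusted p = 1.88e-07). The call in D3DMSO against D0 was lost after thinning (0.0882, in a range of 0.00129 to 0.0882 over 17 alternatives). Cdc45 had 71.1, 70.0 and 59.8 CPM in D3RA, 82.9, 83.5 and 88.3 CPM in D3DMSO and 58.4, 72.6 and 57.9 CPM in D0. Here D3DMSO was highest, at 0.44 ± 0.09 against D0 (adjusted p = 0.000647), while D3RA overlapped D0 and was lower than D3DMSO (-0.34 ± 0.09, adjusted p = 0.00377), a call lost when replicate 1 alone stood for D3RA and was assumed to vary like the other groups (0.0913, in a range of 0.00173 to 0.0913 over 18 alternatives). Mcm10 had 109.7, 109 and 102 CPM in D3RA, 134, 142 and 140.3 CPM in D3DMSO and 162, 159.8 and 156 CPM in D0. The groups did not overlap, with D3RA lowest and D0 highest. Its log2 fold change was -0.37 ± 0.06 between the agents (adjusted p = 5.59e-05) and -0.57 ± 0.06 for D3RA against D0 (adjusted p = 3.52e-07). Mcm10 was also called lower in D3DMSO than in D0. That call was lost under quantile normalization (adjusted p = 0.259) and after thinning (0.122, in a range of 0.00499 to 0.259 over 17 alternatives).

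The priming enzymes held the largest share of members higher than in D0, with 3 of 4 called higher in D3RA and 2 of 4 in D3DMSO. Of all genes, 35% and 28.2% were called higher in these comparisons. Pola2, also of this small set, was called lower than in D0 in both groups, with a log2 fold change of -0.32 in D3RA and -0.55 in D3DMSO. Pola1 had 221, 204 and 190.5 CPM in D3RA, 135, 147 and 134 CPM in D3DMSO and 149, 144 and 146 CPM in D0. Only the D3RA libraries stood out, at 0.57 ± 0.07 against D3DMSO (adjusted p = 1.38e-06) and 0.49 ± 0.07 against D0 (adjusted p = 6.05e-06). Prim1 had 126, 119.9 and 116 CPM in D3RA, 129, 129.9 and 134 CPM in D3DMSO and 109.8, 101 and 101 CPM in D0. Prim2, the large primase subunit, had 69.0, 83.4 and 69.4 CPM in D3RA, 69.7, 70.8 and 70.5 CPM in D3DMSO and 49.8, 53.6 and 47.8 CPM in D0. For both primase genes all 6 D3 libraries were above all D0 libraries, with 0.55 ± 0.08 for Prim2 in D3RA (adjusted p = 8.02e-06) and 0.48 ± 0.08 in D3DMSO (adjusted p = 5.51e-05). The Prim1 call in D3RA (adjusted p = 0.0131) was lost without D3RA replicate 1 (0.0545, in a range of 0.00359 to 0.0937 over 18 alternatives).

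The replicative polymerases were lower than in D0 or not called, and none was higher. Pold1 had 76.5, 60.9 and 69.0 CPM in D3RA, 119.7, 99.96 and 91.7 CPM in D3DMSO and 153, 149.5 and 155 CPM in D0. The groups did not overlap, and the log2 fold change was -0.59 ± 0.10 between the agents (adjusted p = 5.12e-05), -1.15 ± 0.10 for D3RA against D0 (adjusted p = 1.65e-08) and -0.56 ± 0.10 for D3DMSO against D0 (adjusted p = 0.000103). Pole had 159.8, 149 and 164 CPM in D3RA, 148, 156 and 156 CPM in D3DMSO and 153, 151 and 169 CPM in D0. All 3 groups overlapped for Pole, and no comparison among them was called (adjusted p = 0.65, 0.993 and 0.651). The clamp Pcna and the loader subunit Rfc3 rose in D3RA, while Rfc5 of the same loader fell. Pcna had 238, 221 and 208 CPM in D3RA, 166, 165 and 155 CPM in D3DMSO and 165, 164 and 163 CPM in D0. Rfc3 had 119, 123 and 118 CPM in D3RA, 75.3, 81.9 and 70.6 CPM in D3DMSO and 84.3, 81.5 and 68.2 CPM in D0. For both, the D3DMSO and D0 libraries overlapped and the D3RA libraries were above them, with 0.46 ± 0.06 for Pcna (adjusted p = 6.28e-06) and 0.67 ± 0.08 for Rfc3 (adjusted p = 2.31e-06) against D3DMSO. Rfc5, singled out after its values were seen, had 66.1, 55.0 and 56.2 CPM in D3RA, 99.3, 78.6 and 78.4 CPM in D3DMSO and 120.0, 117 and 109 CPM in D0. Its groups did not overlap, with D3RA lowest and D0 highest (-0.52 ± 0.10 against D3DMSO, adjusted p = 0.000165, and -0.97 ± 0.10 against D0, adjusted p = 1.4e-07). Rpa2 had 121, 116 and 102 CPM in D3RA, 84.4, 85.4 and 82.4 CPM in D3DMSO and 123, 111 and 111 CPM in D0. Its D3DMSO libraries were the ones set apart, below both D3RA (0.42 ± 0.07, adjusted p = 6.22e-05) and D0 (-0.45 ± 0.07, adjusted p = 4.39e-05).

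Lig1 was slightly lower in D3RA, at 139, 131 and 147 CPM, against 157, 174 and 168 CPM in D3DMSO and 162, 169.8 and 165 CPM in D0 (-0.26 ± 0.07 between the agents, adjusted p = 0.0044). Fen1 had 7.38, 7.49 and 7.76 CPM in D3RA, 6.77, 4.93 and 4.80 CPM in D3DMSO and 5.54, 7.39 and 5.86 CPM in D0, and it was the 1 member called in no comparison among these groups nor between the agents at D6. Nucleotide supply held the largest rise with RA. Tk1 had 50.1, 50.2 and 46.6 CPM in D3RA, 22.6, 21.6 and 22.6 CPM in D3DMSO and 39.9, 37.6 and 36.5 CPM in D0. The D3RA libraries were above D0 and the D3DMSO libraries below it, with 1.13 ± 0.08 between the agents (adjusted p = 3.3e-09), 0.37 ± 0.08 for D3RA against D0 (adjusted p = 0.000736) and -0.77 ± 0.08 for D3DMSO against D0 (adjusted p = 6.67e-07). The rise in D3RA against D0 was lost after thinning (0.126, in a range of 0.000571 to 0.126 over 18 alternatives). Rrm2 had 211, 207 and 186 CPM in D3RA, 155, 177 and 178 CPM in D3DMSO and 196, 188 and 196 CPM in D0. It was higher in D3RA than in D3DMSO (0.25 ± 0.07, adjusted p = 0.00433), but not in the fit of the D3 libraries alone (0.0522, in a range of 0.00129 to 0.0522 over 18 alternatives). Its fall in D3DMSO against D0 (adjusted p = 0.0249) was lost without D0 replicate 1 or 3 or D3DMSO replicate 1 (0.0655, 0.0657 and 0.115), and when only the libraries of D0, D3RA and D3DMSO were fitted, both with a replicate block (0.0691) and without it (0.0777, in a range of 0.0121 to 0.55 over 17 alternatives). Tyms had 83.1, 64.8 and 68.5 CPM in D3RA, 88.5, 79.6 and 84.4 CPM in D3DMSO and 87.5, 88.2 and 84.7 CPM in D0. The D3 groups overlapped, and the lower call in D3RA (-0.23 ± 0.08, adjusted p = 0.0227) was lost without D3DMSO replicate 1 or D3RA replicate 2 or 3 (0.0746, 0.116 and 0.0712, in a range of 0.000908 to 0.88 over 18 alternatives).

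**Figure D3:**
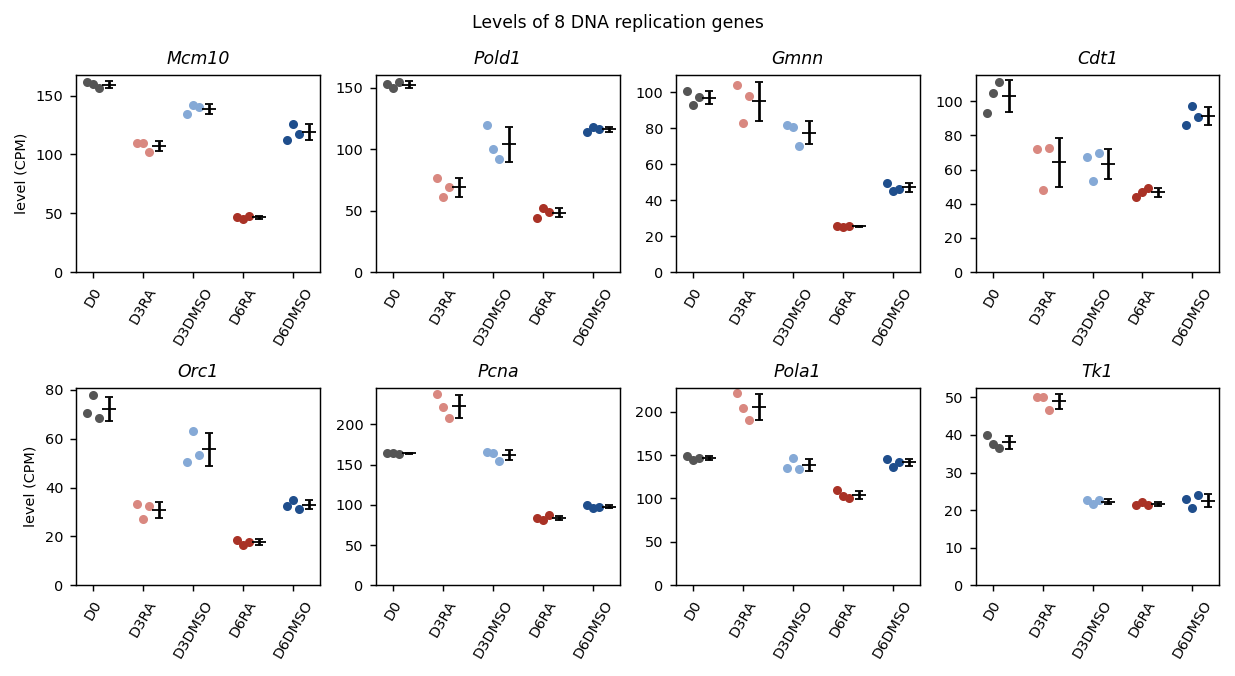
Level in CPM (y axis from 0) of 8 genes in each library, with the group mean and SD (n = 3) to the right of the points. Mcm10, Pold1, Gmnn, Cdt1, Orc1, Pcna and Pola1 were lower in D6RA than in D6DMSO without overlap, while Tk1 differed between the agents at D3 and overlapped at D6.

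The treatment difference at D6 was more negative than that at D3 for most members. This was tested as the D6RA minus D6DMSO difference less the D3RA minus D3DMSO difference, which share no libraries: 33 of 45 members were called lower and 1 higher (48.5% of all genes called, 23.1% lower and 25.4% higher), with a median of -0.65 over the members and 0.04 over all genes. In this test too, the day cannot be told apart from how the D6 libraries were made or counted. Tk1 had the lowest value, -1.19 ± 0.12 (adjusted p = 3.01e-07), with a call for the RA excess at D3 and none at D6. Gmnn came next at -1.17 ± 0.12 (adjusted p = 6.51e-07), being higher with RA at D3 and lower with RA at D6. Pola1, Pola2, Pcna, Rpa2 and Rrm2 made the same turn of sign, with a call in each of the 3 tests. Their difference of differences was -1.01 ± 0.09 for Pola1 (adjusted p = 1.96e-07), -0.78 ± 0.10 for Pola2 (adjusted p = 7.68e-06), -0.68 ± 0.09 for Pcna (adjusted p = 6.41e-06), -0.60 ± 0.10 for Rpa2 (adjusted p = 0.000111) and -0.46 ± 0.10 for Rrm2 (adjusted p = 0.000815). The value of Rpa2 lost its call after thinning (0.086, in a range of 1.81e-05 to 0.086 over 22 alternatives). Some calls behind these turns were weak. That of Rpa2 at D6 was lost without any 1 of the D6 libraries (adjusted p = 0.0511 to 0.104). Those of Gmnn and Rrm2 at D3 were lost in the fit of the D3 libraries alone (adjusted p = 0.0548 and 0.0522).

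A further 14 members were lower with RA at both days, among them Orc1, Mcm5, Mcm6, Mcm10, Cdc45, Pold1, Lig1 and Tyms. Of all genes, 31.4% were called lower with RA at D3 and 33.1% at D6. The share of all genes in each class of the 2 days together was not counted, so these counts describe the members alone. Another 17, with Cdc6, Cdt1, Mcm2, Prim1 and Pole among them, were not called at D3 and were lower with RA at D6. There were 6 members higher with RA at D3 and not called at D6, which were Orc4, Mcm7, Gins1, Rfc3, Rrm1 and Tk1. Orc3 alone was lower with RA at D3 and not called at D6, and it was the 1 member called higher in the test of the difference between the days (0.24 ± 0.08, adjusted p = 0.028). That call was lost without D3DMSO replicate 2 or 3, D3RA replicate 2, D6DMSO replicate 3 or D6RA replicate 1 or 3 (adjusted p = 0.0521, 0.0511, 0.0527, 0.0751, 0.0803 and 0.0532, in a range of 0.0173 to 0.495 over 22 alternatives). Of the called members, Mcm2 had the next highest value, -0.34 ± 0.08 (adjusted p = 0.002). Across the 45 genes, which cannot stand for replicates, the fold changes between the agents at D6 and at D3 had a Pearson r of 0.62 and a Spearman rho of 0.58, given as a description.

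From D3 to D6 nearly every member was lower, in comparisons where the day cannot be told apart from the making or counting of the D6 libraries. In D6RA all 45 members were called lower than in D3RA (69.3% of all genes called, 32% lower and 37.2% higher), 17 of them at least 2-fold, with a median of -0.89 over the members and 0.07 over all genes. Gmnn had the largest fall, to 25.6, 25.0 and 25.8 CPM in D6RA, against 104, 82.7 and 97.7 CPM in D3RA (-1.89 ± 0.09, adjusted p = 2.84e-11). Fen1 came next, with 2.25, 1.68 and 2.94 CPM in D6RA against 7.38, 7.49 and 7.76 CPM in D3RA (-1.77 ± 0.24, adjusted p = 5.47e-06). The smallest falls were those of Orc3 and Orc4, whose calls depended on single libraries. Orc3 gave -0.19 ± 0.06 (adjusted p = 0.0105), lost without D6RA replicate 2 (0.0516, in a range of 0.000381 to 0.0759 over 16 alternatives). Orc4 gave -0.24 ± 0.08 (adjusted p = 0.0164), lost without D3RA replicate 1 or D6RA replicate 2 or 3 (0.107, 0.0522 and 0.0541, in a range of 0.00119 to 0.107 over 16 alternatives). Cdt1, whose D6RA and D3RA libraries overlapped (-0.44 ± 0.14, adjusted p = 0.00938), lost its call without D3RA replicate 1 or 3 (0.0537 and 0.0538, in a range of 0.000109 to 0.0538 over 16 alternatives).

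In D6DMSO 34 members were called lower than in D3DMSO and 3 higher (56.4% of all genes called, 28.1% lower and 28.3% higher), with a median of -0.39 over the members and 0.01 over all genes. Fen1 fell most, to 2.24, 2.44 and 3.59 CPM in D6DMSO, against 6.77, 4.93 and 4.80 CPM in D3DMSO (-1.02 ± 0.24, adjusted p = 0.00165). Rpa3, the smallest RPA subunit, had 23.3, 21.8 and 20.0 CPM in D6DMSO against 48.6, 41.7 and 37.8 CPM in D3DMSO (-0.97 ± 0.13, adjusted p = 1.35e-05). The 3 that rose were Cdt1, Pold2 and Pole. Cdt1 had 86.2, 96.97 and 91.1 CPM in D6DMSO against 67.5, 53.4 and 69.6 CPM in D3DMSO, with no overlap (0.53 ± 0.14, adjusted p = 0.00335). Pold2, an accessory subunit of polymerase delta, had 85.9, 95.04 and 101 CPM in D6DMSO against 80.8, 65.9 and 69.6 CPM in D3DMSO (0.38 ± 0.08, adjusted p = 0.000971). The call of Pole (0.22 ± 0.07, adjusted p = 0.0128) was lost without D6DMSO replicate 2 (0.0792, in a range of 0.00297 to 0.0792 over 15 alternatives).

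Ratios of members within a library do not depend on how libraries were scaled, and 3 were computed after the levels had been seen, for which reason they are described without a test. Gene length sets the zero of such a ratio, so only its differences between libraries can be read. The log2 ratio of Cdt1 to its inhibitor Gmnn was -0.11, 0.17 and 0.19 in D0, -0.53, -0.79 and -0.43 in D3RA, -0.28, -0.60 and -0.02 in D3DMSO, 0.78, 0.91 and 0.94 in D6RA and 0.79, 1.10 and 0.98 in D6DMSO. Both genes were lower with RA at D6, and the ratio between them overlapped between the agents at each day. The log2 ratio of Mcm7 to the mean of Mcm2 to Mcm6 averaged 0.27 ± 0.07 in D3RA and -0.13 ± 0.06 in D3DMSO (SD, n = 3 each). At D6 it was 0.26 ± 0.03 in D6RA and -0.43 ± 0.03 in D6DMSO, and at D0 -0.23 ± 0.06. Each of the 6 RA libraries had a higher ratio than each of the 9 others. The log2 ratio of Tk1 to Tyms, the salvage and the new synthesis route to thymidine nucleotides, averaged -0.55 ± 0.18 in D3RA and -1.92 ± 0.04 in D3DMSO, with -1.19 ± 0.05 in D0. At D6 it was -0.92 ± 0.02 in D6RA and -1.15 ± 0.11 in D6DMSO.

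**Figure D4:**
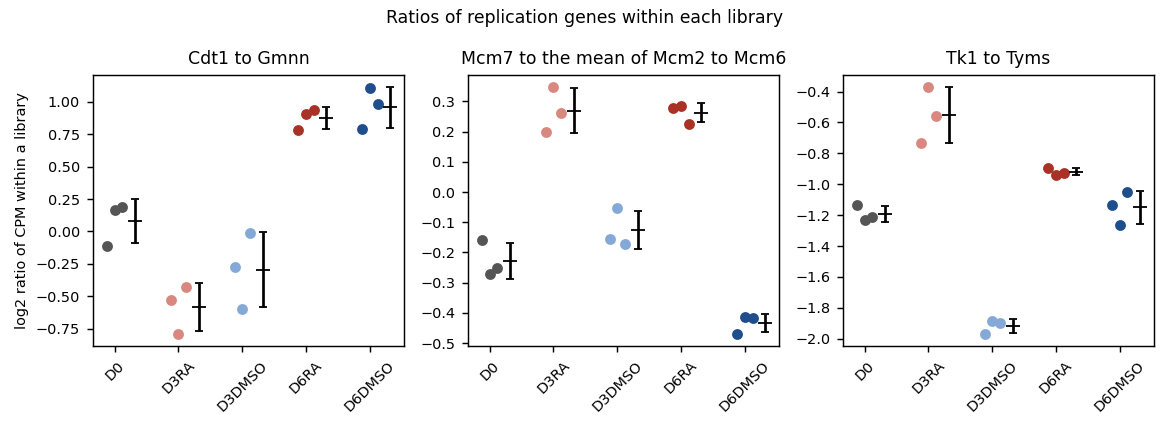
Log2 ratio of CPM within each library for Cdt1 to Gmnn, Mcm7 to the mean of Mcm2 to Mcm6, and Tk1 to Tyms, with group mean and SD (n = 3) beside the points. The Mcm7 ratio is higher in each of the 6 RA libraries than in each of the other 9.

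A wider list of 46 other replication genes, for origin firing, fork protection, alternative clamp loaders, chromatin assembly and nucleotide metabolism, was also mostly lower with RA at D6. Between D6RA and D6DMSO 32 of the 46 (69.6%) were called lower and 7 (15.2%) higher (median -0.44), against 33.1% and 32.6% of all genes. Dctd, which makes dUMP from dCMP, and Recql4, a helicase of origin firing, were the lowest (-1.60 ± 0.10, adjusted p = 3.62e-10, and -1.20 ± 0.11, adjusted p = 3.22e-08). Asf1a, a histone chaperone, and Pole3, a histone-fold subunit of polymerase epsilon, were the highest (0.62 ± 0.09, adjusted p = 1.96e-05, and 0.56 ± 0.09, adjusted p = 4.12e-05). At D3 9 (19.6%) were called lower with RA and 16 (34.8%) higher (median 0.05), against 31.4% and 30.7% of all genes. Dctd was again lowest (-1.13 ± 0.10, adjusted p = 4.55e-08), and Pole3 and Rnaseh2c, a subunit of the RNase that removes RNA from DNA, were highest (1.04 ± 0.09, adjusted p = 4.11e-08, and 0.99 ± 0.14, adjusted p = 8.5e-06). In the test of the difference between the days 32 (69.6%) were called lower and 1 (2.17%) higher, against 23.1% and 25.4% of all genes. Against D0, 17 (37.0%) were called lower and 11 (23.9%) higher in D3RA, against 33.9% and 35% of all genes. In D3DMSO 26 (56.5%) were called lower than in D0 and 3 (6.52%) higher, against 27.8% and 28.2% of all genes. Dut, the enzyme that breaks down dUTP, fell most in D3DMSO against D0 (-1.26 ± 0.09, adjusted p = 1.1e-08). From D3 to D6, 33 (71.7%) were called lower and 3 (6.52%) higher with RA, against 32% and 37.2% of all genes. With DMSO 20 (43.5%) were called lower and 7 (15.2%) higher, against 28.1% and 28.3% of all genes. Rrm2b, the ribonucleotide reductase subunit used outside S phase, was among those that rose in D6RA against D3RA (0.93 ± 0.17, adjusted p = 0.00017) and in D6DMSO against D3DMSO (1.27 ± 0.17, adjusted p = 1.37e-05).

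Genes of mitosis and of the G1 to S switch give a scale for these counts. All 25 mitosis genes, against 33.1% of all genes, were called lower in D6RA than in D6DMSO (median -0.97), led by Ccnb2, a mitotic cyclin (-1.62 ± 0.07, adjusted p = 5.56e-12). At D3 11 of the 25 (44%) were lower and 4 (16%) higher with RA (median -0.04), against 31.4% and 30.7% of all genes. In the test of the difference between the days 24 (96%) were called lower and 0 higher, against 23.1% and 25.4% of all genes. Of 14 regulators of the G1 to S switch, 9 (64.3%) were called lower and 4 (28.6%) higher in D6RA than in D6DMSO (median -0.49). The shares of all genes were 33.1% and 32.6%. Ccnd1, the cyclin of early G1, and E2f2, an activating E2F factor, were the highest of these regulators (1.61 ± 0.12, adjusted p = 4.64e-09, and 1.58 ± 0.14, adjusted p = 3.93e-08). The inhibitors Cdkn1c and Cdkn1a were the lowest (-1.95 ± 0.43, adjusted p = 0.000743, and -1.09 ± 0.27, adjusted p = 0.00179). Whether these lists differ from the 45 members was not tested. Among the members, the 15 whose start windows hold E2F letters had a median log2 fold change of -0.61 between D6RA and D6DMSO, with 12 called lower, and the 22 whose windows do not had -0.38, with 18 called lower. For D3RA against D0 these medians were -0.40 with the letters and 0.02 without. They were -0.38 and -0.19 for D3DMSO against D0, and -0.06 and 0.08 for D3RA against D3DMSO. From D3 to D6 they were -0.86 and -0.85 with RA, and -0.32 and -0.35 with DMSO. For the difference between the days the median was -0.55 with the letters and -0.65 without, so the 2 sets were not ordered alike throughout. These splits were not tested.

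**Figure D5:**
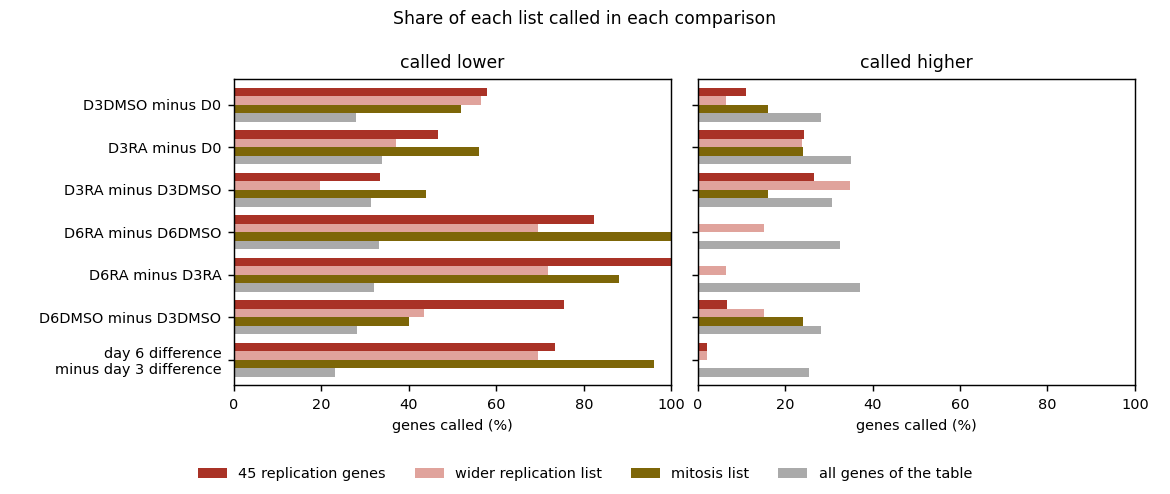
Share of genes called lower (left) and higher (right) in each comparison, in percent of each list, for the 45 replication genes, the wider list of 46, the 25 mitosis genes and all 14717 genes. Between D6RA and D6DMSO 82.2% of the 45 genes were called lower and 0% higher, against 33.1% and 32.6% of all genes.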

How the data were processed

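Per the labels' protocols, a NextSeq500 read 1 end of stranded libraries made from total RNA of P19 cells after ribosomal RNA was removed. The deposited values are log2 values per gene. Per the submitters' processing notes, which give no roles here, the tools were STAR 2.6.0c, featureCounts, limma, edgeR, Trimmomatic 0.32, Bowtie2 2.2.9, FastQC 0.11.2 and SAMtools 0.1.19, and the build was mm9. Undoing the log2 gave whole numbers of reads plus 0.5 times a constant per library for 100% of the values (within 0.05), so the depth behind each value is known. CPM are these counts over library sizes with the ratios of the deposited scale, and with the same geometric mean as the counts without mitochondrial genes. That mean is a choice, so the CPM level as a whole is nominal and its ratios are not. All 14717 genes were tested by limma 3.58.1 (R 4.3.3; variance trend used) on the deposited log2 values of all 15 libraries (1 coefficient per group), and p-values were adjusted by Benjamini-Hochberg over all genes. No filter was used. An adjusted p under 0.05 is a call. The 18 chromatin samples were not analysed here.

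The members and lists were chosen with earlier results of these data known. Genes were named from a panel of 23 members and, per comparison, the 2 highest and 2 lowest called members, and genes of other lists by the second part of that rule. Others were named after their values were seen. Symbols were matched by Ensembl ID (14228 genes matched, 489 not). Start windows are from RefSeq, GRCm38.p6, while the table is listed with mm9, so no coordinates of the table were used. Deviations from the group means of libraries with the same replicate number correlated at 0.11 to 0.58 among D0, D3RA and D3DMSO (9 pairs, all over 0.1), against -0.47 to 0.12 for 18 pairs with different numbers. Only genes at or above the median level were used. Deviations within a group cancel, so these ranges are not independent, and they overlap. The numbers may thus pair these 3 groups, as read from the data and not from the labels. For D3RA with D6DMSO the same numbers gave 0.12 to 0.29 and different ones -0.21 to 0.02. The numbers do not pair D6RA with D6DMSO (-0.19 to -0.02). Scripts were tested on simulated data. There, some genes simulated without a change were called between D3RA and D3DMSO, which was not so between D6RA and D6DMSO. Alternatives were median-of-ratios and quantile scaling, leaving out the lower quartile of genes, a larger added count, limma without the trend, a fit of only the groups compared, a block for replicate number, voom weights and leave-one-out fits, and, chosen after the data were seen, leaving out the 2 shallowest D3RA libraries, thinning all libraries to the smallest, and fitting the D0 and D3 libraries alone with and without the block. Tables were made with Python 3.11.15 and pandas 2.3.3.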

Additional observations from a re-analysis of the deposited data

Results flagged for a closer look

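The test of the difference between the days, which asks whether the RA minus DMSO difference at D6 departs from that at D3, called 34 of the 45 members, 33 lower and 1 higher, and each value is on the log2 scale (limma, Benjamini-Hochberg adjusted p under 0.05 over all genes). The day in this test cannot be told apart from how the D6 libraries were made or counted. Tk1, thymidine kinase, had -1.19 and Gmnn, geminin, -1.17. The values were -1.01 for Pola1 and -0.78 for Pola2, subunits of polymerase alpha, -0.68 for the clamp Pcna, -0.60 for the RPA subunit Rpa2 and -0.46 for the reductase subunit Rrm2. Gmnn and these last 5 genes were called higher with RA at D3 and lower with RA at D6. The Rpa2 call at D6 was lost without any 1 of the D6 libraries. The D3 calls of Gmnn and Rrm2 were lost in the fit of the D3 libraries alone. The value of the ring subunit Mcm2 was -0.34, and that of the origin recognition subunit Orc3, 0.24, was lost without any 1 of 6 libraries, as given above.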

How the results depend on the processing

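The count of members lower in D6RA than in D6DMSO stayed between 35 and 36 when any 1 of the D6 libraries was left out, with 0 higher. Leaving out 1 library gave 3 to 6 members higher in D3DMSO than in D0 with a median of -0.31 to -0.22, a median of -0.21 to -0.078 for D3RA against D0, a median of -0.41 to -0.35 for D6DMSO against D3DMSO, and 0 to 1 members higher in the test of the difference between the days. Under quantile normalization the median log2 fold change of the members was -0.72 for D6RA against D6DMSO, -0.071 for D3RA against D3DMSO, -0.16 for D3DMSO against D0, -0.99 for D6RA against D3RA and -0.44 for D6DMSO against D3DMSO, with 0 higher in the test of the difference between the days. The median over all genes under that setting was, in the same order, -0.10, -0.02, -0.01, -0.06 and -0.06. In the fit of the compared groups alone, 17 members were called between D3RA and D3DMSO, 8 of them lower, and 1 (Mcm7) was called higher in D6RA than in D6DMSO. With the lower quartile of genes left out, the median for D3DMSO against D0 was -0.28. With 1 library left in D3RA (without the 2 shallowest), assumed to vary like the other groups, 8 members were lower in D3RA than in D3DMSO and 0 higher in the test of the difference between the days. After thinning to the smallest library the median for D6RA against D6DMSO was -0.54, 3 members were higher in D3DMSO than in D0, and 0 were higher in the test of the difference between the days. The cause of these changes was not tested. With a replicate block in the fit of all libraries, 32 members were called between D3DMSO and D0, against 31 without it, and no other call of a member changed. When only the libraries of D0, D3RA and D3DMSO were fitted, the block gave 29 calls between D3DMSO and D0 and 28 without it, 27 and 23 between D3RA and D3DMSO, and 32 and 32 between D3RA and D0. Set against the fit of all libraries without a block, that blocked fit lost Rrm2, Pole2 and Rfc1 and gained Rfc4 between D3DMSO and D0. No other call of a member differed between these 2 fits. The uncalled log2 fold change of Orc4 between D6RA and D6DMSO was -0.027 under quantile normalization and -0.00086 after thinning. Of 142 named calls, 113 held in all alternatives run, 29 were lost in at least 1, and 0 changed sign. Fen1 had the lowest counts, and the comparisons of D6 with D3 cannot be told apart from how the D6 libraries were made or counted.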
